A study of Mus musculus with 8 samples.

Results

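The 7 genes described here are the pantothenate kinase family and the genes of the later steps from pantothenate (vitamin B5) to coenzyme A (CoA), and were chosen by their symbols: Pank1, Pank2, Pank3, Pank4, Ppcs, Ppcdc and Coasy. Each had 1 row among the 35275 rows of the expression table, and all 7 passed the minimum for testing. The values are FPKM, fragments counted per length of gene and per total of mapped reads, from lens fiber cells (FC) of C57BL/6 mice (C57BL/6J in the methods of the study). The 4 libraries of cigarette smoke (CS)-exposed mice came from animals kept from about birth in a whole-body smoke chamber. Their mothers had been placed in it late in pregnancy, a few days before the birth. Smoke was given for 5 hours on 5 days of each week over 3.5 months. The 4 libraries of untreated control (Ct) mice came from animals of the same age in ordinary housing. Each library was made from fiber cells of the right eyes of a pool of 4 mice, taken off the epithelium by hand, so that a library is an average over animals and may hold cells of neighbouring tissue.

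CoA is the carrier of acyl groups in the citric acid cycle and in the synthesis and breakdown of fatty acids, and its phosphopantetheine arm is passed on to acyl carrier proteins. Pantothenate kinases phosphorylate pantothenate in the step that limits the rate, and acetyl-CoA inhibits them. PPCS adds cysteine, PPCDC removes a carboxyl group, and the bifunctional enzyme COASY attaches the nucleotide and adds the last phosphate. Pank1, Pank2 and Pank3 encode active kinases, and loss of PANK2 in people causes neurodegeneration with iron in the brain. PANK4 keeps the kinase fold without kinase activity and carries a phosphatase domain that acts on phosphopantetheine. Loss of Pank4 in mice has been linked to cataract. Protein levels were not analysed here.

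The kinase genes share a feature that their expression does not show. Pank1, Pank2 and Pank3 each hold a microRNA gene on their own strand, inside an intron of the GENCODE annotation, while Pank4 holds none. The hairpins are Mir107 in Pank1, Mir103-2 in Pank2 and Mir103-1 in Pank3, and the main arms of the last pair are identical. The intron spans the hairpin in 3 of 4 annotated transcripts of Pank1, 7 of 8 of Pank2 and the single one of Pank3. Mature sequences from RefSeq (GRCm38.p6) are shown because all 3 host genes carry the same seed (bases 2 to 8, in capitals). Small RNAs were not analysed here.
mmu-miR-107-3p, within Pank1 (chr19:34820700-34820722, minus strand): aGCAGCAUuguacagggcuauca
mmu-miR-103-3p, within Pank2 (chr2:131288103-131288125, plus strand) and Pank3 (chr11:35782447-35782469, plus strand): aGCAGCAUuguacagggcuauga

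Libraries were close to each other in depth, and the fiber cell label held. From the steps of the FPKM values, each worth 1 read, the depth relative to Ct replicate 1 ranged from 0.910 to 1.17. The 9 fiber cell markers with a single row (of 10 listed, Cryaa, Crybb2, Mip and Bfsp1 among them) summed to 295336 to 302819 FPKM in Ct and 287431 to 297653 in CS libraries. Of 8 rod photoreceptor markers, 7 were higher in every CS library than in every Ct library, and their sum was 10.8 to 28.4 FPKM in Ct and 32.2 to 89.3 in CS libraries, highest in CS replicate 3. The 6 pigment epithelium markers summed to 1.16 to 1.37 FPKM in Ct and 2.15 to 12.7 in CS libraries, highest in CS replicate 3. Only 2 of them, Rpe65 and Rgr, were higher in every CS library than in every Ct library. Rlbp1, Tyrp1 and Pmel overlapped between the groups, and Best1 was listed at 0 in all. The sum of 8 lens epithelium markers was 172 to 291 FPKM in Ct and 154 to 214 in CS libraries, highest in Ct replicate 3. The 4 blood and immune markers summed to 0.284 to 1.96 FPKM in Ct and 0.493 to 20.6 FPKM in CS libraries, where CS replicate 4 stood apart through Hba-a1 (9.46 FPKM) and Hbb-bs (11.1 FPKM), and 2 endothelial markers to at most 0.395 FPKM. The part of these cells in the values below was not tested. Xist, which is high in females, was at most 0.0113 FPKM in replicates 1 and 2 of both groups and 41.1 to 49.0 FPKM in replicates 3 and 4. By the methods of the study each group held 2 male and 2 female pools, and the labels do not name the sex of a library.

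**Figure D1:**
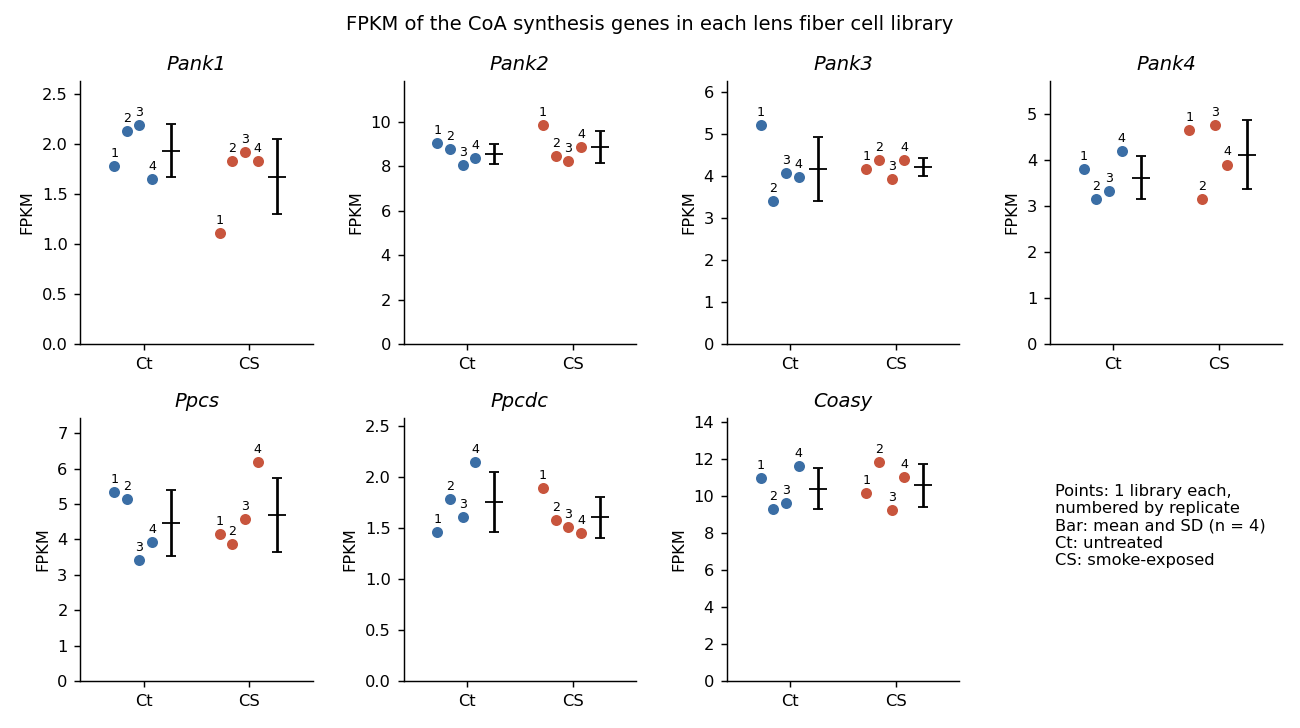
FPKM of each gene (vertical axis, starting at 0) in the 4 untreated Ct libraries and the 4 CS-exposed libraries (1 point per library, numbered by replicate), with the mean and SD of each group as a bar. The 2 groups overlap for every gene, and Pank1 in CS replicate 1 lies below the other libraries at 1.11 FPKM.

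All 7 genes were expressed in lens FC, and the levels of CS-exposed and untreated Ct mice overlapped for each of them. In the limma fit over the 9794 genes whose mean reached 1.0 FPKM in Ct or in CS libraries, 0 of the 7 genes had an adjusted p value under 0.05, where 1 gene of all tested did (0.0102%). At an unadjusted p value under 0.05 the count was also 0 of 7, against 473 of all genes tested (4.83%), and limma-voom on recovered reads gave 0 of 7 at both thresholds. Groups without overlap were found for 0 of 7 genes, against 3.08% of all genes tested. Of the 7 differences, 5 were above 0 and 2 below, with a median of 0.03 on the log2 scale beside 0.0043 for all genes tested. In bulk RNA, fewer cells of a type and less RNA per cell cannot be told apart.

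Pank2 was the highest of the kinase genes and the steadiest of the 7. It lies on chromosome 2 of GRCm38 from 131262495 to 131299188 (plus strand). Its expression was 9.03, 8.76, 8.04 and 8.37 FPKM in Ct replicates 1 to 4 and 9.85, 8.48, 8.23 and 8.85 FPKM in CS replicates 1 to 4. One CS library, replicate 1, exceeded all Ct libraries, and the other 3 lay among them. The means were 8.55 ± 0.437 FPKM in Ct and 8.85 ± 0.713 FPKM in CS (SD, n = 4 each), a log2 difference of 0.05 (95% interval -0.13 to 0.23, limma adjusted p = 0.985, exact permutation p = 0.543). Behind each value stood 646 to 887 reads. In the annotation, 22.9% of the exon bases of Pank2 also belong to Rnf24 on the other strand (mean 0.953 FPKM), and whether reads were counted by strand is not given in the sources used here.

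Pank3, a cytosolic kinase, was below Pank2 in every library. The gene is on chromosome 11 from 35769484 to 35791285 (plus strand). Ct libraries had 5.22, 3.41, 4.08 and 3.98 FPKM, and CS libraries 4.18, 4.39, 3.94 and 4.39 FPKM, in replicate order. The Ct libraries held both the highest and the lowest value, and the CS libraries lay within that range. The means of 4.17 ± 0.759 FPKM in Ct and 4.22 ± 0.215 FPKM in CS (SD, n = 4 each) gave a log2 difference of 0.03 (95% interval -0.24 to 0.31, limma adjusted p = 0.995, exact permutation p = 0.80).

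Pank1 was the lowest of the kinase genes. It is on chromosome 19 from 34806940 to 34879455 (minus strand). Its values were 1.77, 2.12, 2.19 and 1.65 FPKM in Ct and 1.11, 1.83, 1.91 and 1.83 FPKM in CS libraries. CS replicate 1, with 81 reads, was below all others, and the other 3 CS libraries lay within the range of Ct. The mean of 1.67 ± 0.376 FPKM in CS and 1.93 ± 0.264 FPKM in Ct (SD, n = 4 each) differed by -0.22 on the log2 scale (95% interval -0.64 to 0.20, limma adjusted p = 0.969, exact permutation p = 0.400). Without CS replicate 1 the log2 difference was -0.05.

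Pank4 had the largest log2 difference above 0 of the 7 genes, and it did not exceed the spread between libraries. The gene is on chromosome 4 from 154964123 to 154980938 (plus strand), with 7 annotated transcripts that the table does not separate. Ct libraries were at 3.79, 3.14, 3.32 and 4.19 FPKM and CS libraries at 4.64, 3.14, 4.75 and 3.89 FPKM. CS replicates 1 and 3 exceeded every Ct library, CS replicate 4 lay among them, and CS replicate 2 was level with the lowest. The mean was 3.61 ± 0.471 FPKM in Ct and 4.11 ± 0.75 FPKM in CS (SD, n = 4 each), a log2 difference of 0.17 (limma adjusted p = 0.965, exact permutation p = 0.343). The 95% interval of the fold ran from 0.902 to 1.41, which includes both a lower and a higher level in CS. The log2 difference was 0.10 without CS replicate 3, 0.11 without CS replicate 1, 0.11 without Ct replicate 2 and 0.29 without CS replicate 2 (limma adjusted p = 0.921).

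**Figure D2:**
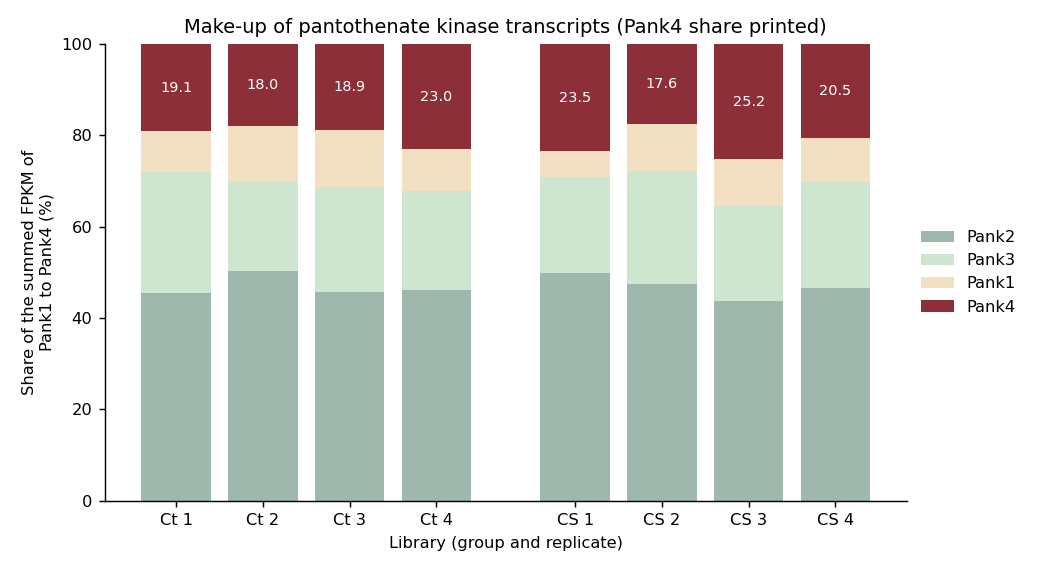
Share of each gene in the summed FPKM of Pank1 to Pank4 (vertical axis, percent) in each library (horizontal axis, group and replicate), with the Pank4 share printed in its segment. Pank2 makes up the largest segment of every library (43.7% to 50.2%), and the Pank4 share ranges from 18.0% to 23.0% in Ct and from 17.6% to 25.2% in CS libraries.

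Since Pank4 has no kinase activity, its level was also taken beside those of the active kinases, a ratio that does not depend on the scaling of a library. The kinase genes summed to 17.4 to 19.8 FPKM in Ct and 17.8 to 19.8 FPKM in CS libraries. Pank2 made up 46.9% ± 2.26 of this sum in Ct and 46.9% ± 2.52 in CS, Pank3 22.7% ± 2.83 and 22.4% ± 1.76, and Pank1 10.6% ± 1.90 and 8.92% ± 2.22 (SD, n = 4 each). The Pank4 share was 19.8% ± 2.23 in Ct and 21.7% ± 3.36 in CS (SD, n = 4 each). The difference of 1.94 percentage points did not exceed the spread of the 4 libraries (exact permutation p = 0.343, two-sided, adjusted over 7 such tests 0.70). The ratio of Pank4 to the sum of Pank1, Pank2 and Pank3 was 0.237, 0.220, 0.232 and 0.299 in Ct and 0.306, 0.213, 0.337 and 0.258 in CS libraries. CS replicates 1 and 3 exceeded every Ct library, CS replicate 2 was below all of them, and CS replicate 4 lay among them. The log2 difference of this ratio was 0.16 (two-sided exact permutation test, p = 0.343), and the sum of the active kinases was 14.7 ± 0.926 FPKM in Ct and 14.7 ± 0.484 FPKM in CS (exact permutation test, p = 0.943).

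Ppcs, which encodes the synthetase that joins phosphopantothenate to cysteine, had, with Pank1, the widest spread within groups on the log2 scale. It is on chromosome 4 from 119418530 to 119422420 (minus strand). The values were 5.35, 5.15, 3.43 and 3.94 FPKM in Ct and 4.15, 3.87, 4.58 and 6.20 FPKM in CS libraries, with 110 to 207 reads each. Ct libraries were high in replicates 1 and 2 and low in 3 and 4, and CS libraries the reverse. The means of 4.47 ± 0.931 FPKM in Ct and 4.70 ± 1.04 FPKM in CS (SD, n = 4 each) gave a log2 difference of 0.07 (95% interval -0.31 to 0.45, limma adjusted p = 0.989, exact permutation p = 0.714). Replicates 1 and 2 of both groups had low Xist and replicates 3 and 4 high Xist. Within the low-Xist libraries the log2 difference of Ppcs was -0.38, and within the high-Xist libraries it was 0.52. The difference between these, tested in a limma fit with an interaction term after the pattern had been seen, was 0.90 (95% interval 0.37 to 1.44, limma adjusted p = 0.853). Ppcs was past an unadjusted p value of 0.05 for this interaction, as were 5.57% of all genes tested, and 0 genes passed in limma after adjustment. For the other 6 genes the interaction had limma p values from 0.263 (Ppcdc) to 0.933 (Pank3).

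Ppcdc, the decarboxylase gene of the next step, was the lowest of the 7. It is on chromosome 9 from 57385095 to 57440124 (minus strand). Ct libraries were at 1.46, 1.79, 1.61 and 2.15 FPKM and CS libraries at 1.90, 1.58, 1.51 and 1.45 FPKM, from 80 to 110 reads. Ct replicate 4 was the highest and CS replicate 4 the lowest, and the remaining libraries were mixed. The mean was 1.75 ± 0.297 FPKM in Ct and 1.61 ± 0.201 FPKM in CS (SD, n = 4 each), a log2 difference of -0.11 (95% interval -0.48 to 0.25, limma adjusted p = 0.985, exact permutation p = 0.457).

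Coasy, whose product completes CoA, was the highest of the 7. It is on chromosome 11 from 101082565 to 101086619 (plus strand). Its values were 11.0, 9.30, 9.61 and 11.6 FPKM in Ct and 10.1, 11.9, 9.21 and 11.0 FPKM in CS libraries. The groups covered nearly the same range. The means of 10.4 ± 1.11 FPKM in Ct and 10.6 ± 1.14 FPKM in CS (SD, n = 4 each) gave a log2 difference of 0.03 (95% interval -0.19 to 0.25, limma adjusted p = 0.995, exact permutation p = 0.80).

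**Figure D3:**
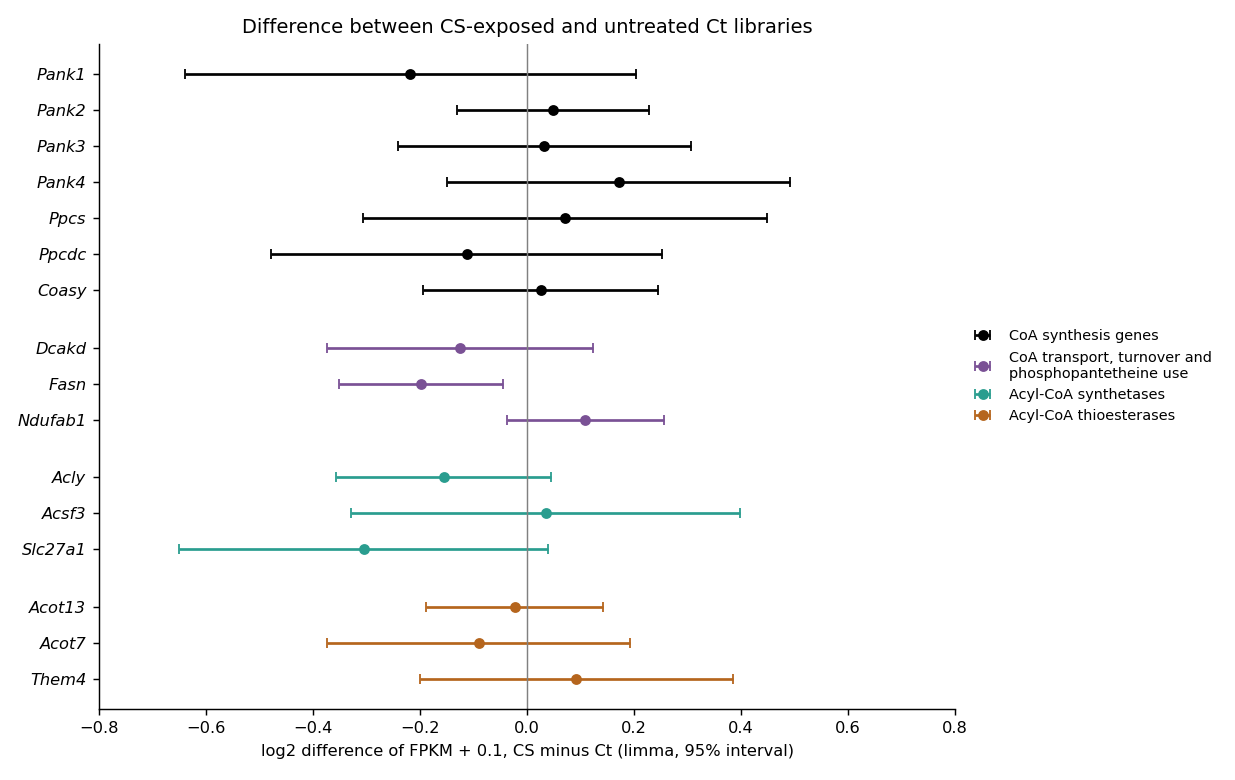
Log2 difference between CS-exposed and untreated Ct libraries (horizontal axis, on FPKM + 0.1, CS minus Ct, limma estimate with its 95% interval) for the 7 CoA synthesis genes and for named genes of 3 lists of CoA users. The intervals of all 7 CoA synthesis genes include 0, and that of Fasn (-0.35 to -0.05) does not.

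By mean FPKM over the 8 libraries, a level per length of gene, the order was Coasy (10.5), Pank2 (8.70), Ppcs (4.58), Pank3 (4.20), Pank4 (3.86), Pank1 (1.80) and Ppcdc (1.68). The median of all genes tested was 4.68 FPKM. Coasy was above 72.7% of the genes tested and Ppcdc above 17.3%. Coasy exceeded Pank2 by 1.2-fold, Pank2 exceeded Ppcs by 1.93-fold and Pank4 exceeded Pank1 by 2.15-fold, each in 8 of 8 libraries (exact sign-flip permutation test, p = 0.00781, the smallest that 8 libraries allow, adjusted over 6 neighbouring pairs 0.0156). The order was read from the same 8 libraries, so that these p values are no independent test of the order. They take this smallest value whenever all 8 libraries go the same way, whatever the spread of the ratio. Among Ppcs, Pank3 and Pank4, neighbours in this order did not differ beyond the spread between libraries (exact adjusted p = 0.403 for Ppcs against Pank3 and 0.352 for Pank3 against Pank4). The same was found for Pank1 and Ppcdc, with Pank1 higher in 6 of 8 libraries (exact adjusted p = 0.570).

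**Figure D4:**
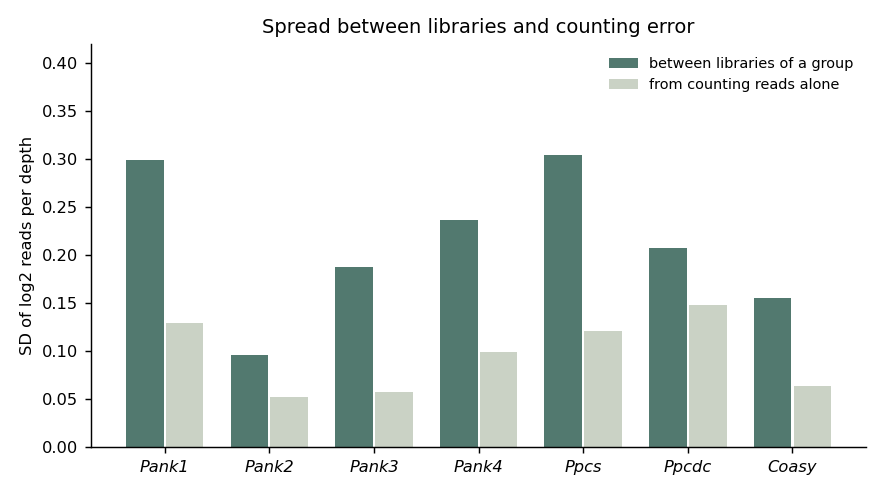
SD of log2 reads per depth for each gene (vertical axis), between libraries of the same group (dark bars) and from the counting of reads alone (light bars). The spread between libraries is above the counting error for every gene, by 1.40 times for Ppcdc and 3.27 times for Pank3.

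Whole reads were recovered for all 7 genes, and counting error came to 3.61% of the value for Pank2 and 10.3% for Ppcdc. The SD between libraries of a group on the log2 scale was 0.10 for Pank2, 0.16 for Coasy, 0.19 for Pank3, 0.21 for Ppcdc, 0.24 for Pank4, 0.30 for Pank1 and 0.30 for Ppcs. That of Pank3 was 3.27 times its counting error, which was the largest ratio, and that of Ppcdc 1.40 times, the smallest. Counting error here covers the sampling of reads only.

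No correlation between levels of the 7 genes over the 8 libraries passed adjustment over 21 pairs. With so few libraries this does not show that the levels are unrelated. The pair with the smallest p value was Pank1 with Pank2 (Pearson r = -0.80, exact permutation p = 0.0295, adjusted 0.619; Spearman rho = -0.62, exact permutation p = 0.115, adjusted 0.718). When the 2 libraries with the most extreme Pank1 levels were left out, r was 0.14, over a range of Pank1 that is narrower by construction, so that the relation was not seen without those libraries. Over the 4694 genes that averaged 5 FPKM or more, the patterns most like that of Pank4 were those of Commd6 (r = 0.93), Cpeb3 (r = 0.92) and Glrx3 (r = 0.88). These are the highest values over 8 libraries that share their depth and make-up, and they are given as a description. Commd6 was at 17.9 to 19.7 FPKM in Ct and 18.6 to 21.5 FPKM in CS libraries.

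Genes that move, use or break down CoA were looked at as 3 lists of 45 genes, of which 25 passed the minimum for testing. Of these 25, 1 had an unadjusted p value under 0.05 (4.0%, beside 4.83% of all genes tested), and 0 an adjusted one in limma. The median log2 difference was -0.02, with 12 genes above 0 and 13 below.

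The first list held 15 genes for transport and turnover of pantothenate and CoA and for the use of phosphopantetheine, and 8 were tested, with 4 above 0, 4 below and a median of 0.02. The one gene past the unadjusted threshold was Fasn, fatty acid synthase, whose acyl carrier domain bears the phosphopantetheine arm. Its values were 17.3, 16.0, 17.5 and 15.5 FPKM in Ct and 14.1, 15.6, 13.8 and 14.1 FPKM in CS libraries. CS replicates 1, 3 and 4 were below every Ct library, and CS replicate 2 was just above Ct replicate 4. The log2 difference was -0.20 (95% interval -0.35 to -0.05, limma p = 0.0154, adjusted p = 0.956, exact permutation p = 0.0571). Ndufab1, the mitochondrial acyl carrier protein, was at 13.9 ± 0.361 FPKM in Ct and 15.0 ± 0.909 FPKM in CS, and Dcakd, a relative of dephospho-CoA kinase, at 11.4 ± 0.940 and 10.5 ± 1.62 FPKM (SD, n = 4 each). Their log2 differences were 0.11 and -0.13 (limma adjusted p = 0.956 and 0.976). Among the genes under the minimum, named after their values were seen, Slc5a6, which carries pantothenate into cells, was at 0.213 to 0.531 FPKM in Ct and 0.391 to 0.484 FPKM in CS libraries. The pantetheinase genes Vnn1 and Vnn3 were listed at 0 in all 8 libraries.

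Of 17 acyl-CoA synthetase genes 11 were tested, 5 above 0 and 6 below, with a median log2 difference of -0.05 and 0 past either threshold in limma. The most abundant were Acly, which makes acetyl-CoA from citrate, Slc27a1, a fatty acid transporter with synthetase activity, and Acsf3, a mitochondrial malonyl-CoA synthetase. Acly was at 8.49 ± 0.914 FPKM in Ct and 7.58 ± 0.306 FPKM in CS, Slc27a1 at 8.44 ± 1.84 and 6.78 ± 1.28 FPKM, and Acsf3 at 5.03 ± 1.19 and 5.05 ± 0.507 FPKM (SD, n = 4 each). The log2 differences were -0.16, -0.31 and 0.03, with limma adjusted p = 0.956, 0.956 and 0.995. Slc27a1 passed the unadjusted threshold in 4 of 20 alternative fits, limma-voom among them, and its log2 difference was -0.17 without Ct replicate 3.

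Of 13 acyl-CoA thioesterase genes, which release CoA from acyl chains, 6 were tested, 3 above 0 and 3 below, with a median of -0.0030 and 0 past either threshold in limma. Acot13 was far above the CoA synthesis genes, at 56.0 ± 1.84 FPKM in Ct and 55.3 ± 6.21 FPKM in CS (SD, n = 4 each), with a log2 difference of -0.02 (95% interval -0.19 to 0.14). Acot7 and Them4 had log2 differences of -0.09 and 0.09 (limma adjusted p = 0.985 for each).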

How the data were processed

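Fiber cells of mouse lenses were measured by RNA-Seq in 8 libraries, 4 of each group by the sample titles. Per the labels, the authors aligned reads to GRCm38 with STAR 2.5, counted them per gene with HTSeq 0.6.1 and deposited FPKM per library and per group mean. The authors' log2 fold change, p-value and adjusted p-value columns (DESeq2) were not used. The annotation release is not given in the sources used here. Coordinates are from GENCODE M21 (GRCm38). Genes whose mean reached 1.0 FPKM in Ct or in CS libraries were fitted on log2(FPKM + 0.1) with limma 3.58.1 in R 4.3.3 (trend, two-sided, Benjamini-Hochberg over all genes tested). This scale understates changes of low genes. Whole reads, within 0.02 of a whole number, were recovered from FPKM steps for 9770 of 9794 genes tested (99.8%). Single values were compared by exact permutation over 70 assignments, with a smallest p of 0.0286. Replicate pairs of a group differed by more than sampling noise (chi-square per gene of at least 5.78). The fit was tested on simulated data. Python 3.11.15, scipy 1.17.1 and matplotlib 3.10.9 were also used. The members, lists and tests were chosen with earlier results of these data known. Genes named are the 7 members, the 3 most abundant genes of each list, list genes with p under 0.05, the 3 genes most like Pank4, cell type markers and Xist. Slc5a6, Vnn1, Vnn3 and Rnf24, which overlaps Pank2, fall outside this rule and were named after their values were seen. Alternatives were other pseudocounts, filters and scalings, eBayes settings, limma-voom on recovered reads, a replicate block and leaving out each library. The Xist term and interaction were chosen after seeing the data. The marker Lim2, listed on several rows, was left out.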

Additional observations from a re-analysis of the deposited data

Results flagged for a closer look

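Pank1 was at 1.11 FPKM in CS replicate 1 while the remaining 3 CS libraries held 1.83 to 1.91 FPKM, a gap of 0.891 of the range of the group, above Dixon's 95% critical value for 4 samples. Of 16 groups of 4 libraries examined, 1 held such a library, where chance gives 0.8.

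Ppcs was lower in both CS libraries than in both Ct libraries of replicates 1 and 2, where Xist was low, and higher in both CS than in both Ct libraries of replicates 3 and 4, where Xist was high. The difference between these effects was 0.905 on the log2 scale (limma adjusted p = 0.853), and it did not pass the adjustment over all genes tested. By the methods of the study each group held 2 male and 2 female pools, as many as had low and high Xist, and the labels do not name the sex of a library.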

How the results depend on the processing

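Of the 7 genes, 0 had an unadjusted limma p value under 0.05 in any of 19 or 20 alternative fits each, while Fasn had one in 20 of 20, Slc27a1 in 4 (the replicate block with an adjusted p = 0.805, limma-voom, without Ct replicate 1 and without CS replicate 3) and Acly in 1 (without Ct replicate 4). Leaving out each library in turn, the log2 difference ranged from -0.29 to -0.05 for Pank1, -0.0039 to 0.0815 for Pank2, -0.0563 to 0.14 for Pank3, 0.10 to 0.29 for Pank4, -0.0671 to 0.16 for Ppcs, -0.19 to -0.02 for Ppcdc and -0.0313 to 0.0889 for Coasy, so that Pank2, Pank3, Ppcs and Coasy had no firm direction. The sign also changed for Acot13 (-0.0707 to 0.0498), Acsf3 (-0.15 to 0.12) and Them4 (-0.0103 to 0.20). Acot7 (-0.19 to -0.00086), Dcakd (-0.18 to -0.0089), Slc27a1 (-0.42 to -0.17) and Acly (-0.24 to -0.12) stayed below 0, though their 95% intervals over all 8 libraries included 0. The Pank4 share difference ranged from 0.767 to 3.31 points, its log2 ratio from 0.07 to 0.29 and the Ppcs interaction from 0.69 to 1.12. Genes with an adjusted p value under 0.05 numbered 1 as reported, 0 without a filter, 0 with eBayes without a trend, 5 with the replicate block and 2 with limma-voom, and 0 to 1 when a library was left out. Unadjusted counts were 473 as reported, 226 with a filter at 5 FPKM, 862 without a filter, and 418 to 525 when a library was left out. A filter at 5 FPKM left only Pank2 and Coasy of the 7. Deviations of same-numbered libraries correlated by 0.012 to 0.161, with a mean of 0.0904. These correlations were low but all above 0. The main fit did not take the numbers as pairs, and the replicate block is the fit that does. With the replicate block Pank4 had a log2 difference of 0.17 (limma adjusted p = 0.929), and no call on the 7 genes changed. At 80 to 207 reads, Pank1, Ppcdc and Ppcs carry the largest counting error.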
